A study of Homo sapiens with 3 samples.

Results

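RNA from cells stably transfected with an Hsp27 shRNA vector was set against RNA from cells with a control vector, with 1 expression array for each. Both cultures, and another with an Hsp27 ORF vector, are labelled HepG2, a human liver tumour line, and were grown in DMEM with 10% serum. The titles call the control EGFP-NC and the knockdown HSP27-SiRNA, while the transfection label of the latter says shRNA. The sources used here do not say whether the cells were pools or single clones, which hairpin was used or how much Hsp27 protein was left. The array of the Hsp27 ORF vector entered the choice of probe sets and the floor, and its values are given beside the others. For each of 19775 genes with a probe set of its own, the brightest such probe set on average over the 3 arrays was read. A floor was set at a log2 signal of 5.93, the median over all probe sets and arrays, and lower signals were raised to it before log2 ratios of shRNA to control were taken. The 12444 genes above the floor on the shRNA or the control array count as measured. Among them, 8071 had a log2 signal of at least 8.63, the 75th percentile over all probe sets and arrays, on the brighter of the 2 and are called bright.

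Hsp27, the product of HSPB1, is a small heat shock protein that binds unfolded proteins, forms large oligomers and is phosphorylated by the kinase MK2 in the p38 pathway. Through that phosphorylation it has been tied to actin filaments and cell movement, and the series title speaks of metastasis of hepatocellular carcinoma. A short hairpin RNA is cut by DICER1 into a small RNA that an Argonaute protein uses to find and cleave a matching transcript. Double-stranded RNA can also be recognised by the innate sensors RIGI, IFIH1 and TLR3, whose signals switch on interferon-stimulated genes.

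With 1 array per group no difference below has a replicate check, no test was possible and every value describes these arrays rather than the conditions. As a yardstick, 2822 pairs of probe sets for the same gene gave a probe-set noise SD of the log2 ratio, which ran from 0.10 in the brightest bin of signal to 0.41 in the dimmest. It covers hybridisation and probe differences and contains nothing of the variation between cultures.

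HSPB1 read a log2 signal of 13.03 on the shRNA array, 13.25 on the control array and 13.11 on the ORF array. The shRNA array was the lowest, and its log2 ratio to control was -0.22, or 1.16-fold lower, beside a noise SD of 0.12. This gene has 1 probe set, so no second reading was at hand. The ratio moved between -0.22 and -0.17 over the 6 alternatives that kept the probe set. Genes this bright tended to read lower on the shRNA array: 523 genes with a signal of 13 to 14 had a median ratio of -0.04, and the 224 genes above 14 had a median of -0.14. At less than 2 noise SDs, the HSPB1 signal of the library labelled shRNA was not clearly apart from control, so that the label is not borne out by a large drop of this transcript.

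The other 4 measured small heat shock proteins also lay below 0 without a large difference. HSPB8, a partner of the autophagy factor BAG3, had a ratio of -0.11, and its second probe set read 0.32. HSPB3, a muscle form, had -0.49, CRYAB, the alpha-B crystallin of lens and muscle, -0.13, and HSPB7, another muscle form, -0.02. Of the 5 measured members, HSPB1 included, 0 passed 1.5-fold in either direction. Among 19 measured genes of HSF1, the heat shock transcription factor, and the cytosolic chaperones, HSPA1L alone passed 1.5-fold, with log2 signals of 6.64 on shRNA, 7.66 on control and 7.82 on ORF. Of 11 kinases of the p38 and MK2 axis and related kinases, PRKD1 alone did, with 6.65 on shRNA and 5.43 on control, the latter below the floor (floored ratio 0.73).

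The labelled cell type was checked against its markers. Most defining hepatocyte transcripts were near background: of 32 markers on the array, 11 were above the floor and 3 were bright. ALB, the gene for albumin, read 4.88 on shRNA and 4.27 on control, both below the floor. TTR, the thyroid hormone carrier transthyretin, read 4.47 and 3.41, and APOA1, the main protein of high-density lipoprotein, 5.67 and 5.64. The summed linear signal of all 32 hepatocyte markers on the array, those below the floor included, was 14618 on shRNA and 14984 on control. Of the 11 measured, 7 were below 0, 4 at least 1.5-fold lower and 1 higher, with a median of -0.25. The lower ones were CYP3A4, a drug-metabolising enzyme (-0.90), HPX, the heme carrier hemopexin (-0.71), CEBPA, a liver transcription factor (-0.64), and RBP4, the retinol carrier (-0.63). CYP1A2, another drug-metabolising enzyme, had 0.63. Leukocyte markers (2 of 11 above the floor, 0 bright) and endothelial markers (4 of 10, 0 bright) were near background, and PTPRC, which defines leukocytes, read 3.87 and 3.80. Of 14 fibroblast and stellate cell markers 9 were above the floor and 3 were bright, with summed signals of 13511 and 13141. Of the 19 secreted hepatocyte markers on the array, 4 were above the floor and 1, RBP4, was bright. Most secreted liver markers were thus not seen above the floor, and the part of cell identity in the results was not tested.

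The shRNA and control arrays were alike for most genes. The median log2 ratio was -0.01 over the measured genes and -0.02 over the bright ones, of which 47.0% were above 0. At least 2-fold, 85 genes (0.683%) were higher and 61 genes (0.490%) lower on the shRNA array. At 1.5-fold, the threshold used for gene lists, 455 genes (3.66%) were higher and 418 (3.36%) lower. These shares are the background for every count of list or family members past 1.5-fold. Among bright genes these counts were 28 (0.347%) and 9 (0.112%) at 2-fold, and 147 (1.82%) and 114 (1.41%) at 1.5-fold. The counts thinned with signal, from 156 higher and 148 lower among 1392 genes with a signal of 7 to 8, to 9 higher and 13 lower among 1016 genes between 12 and 13.

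**Figure D1:**
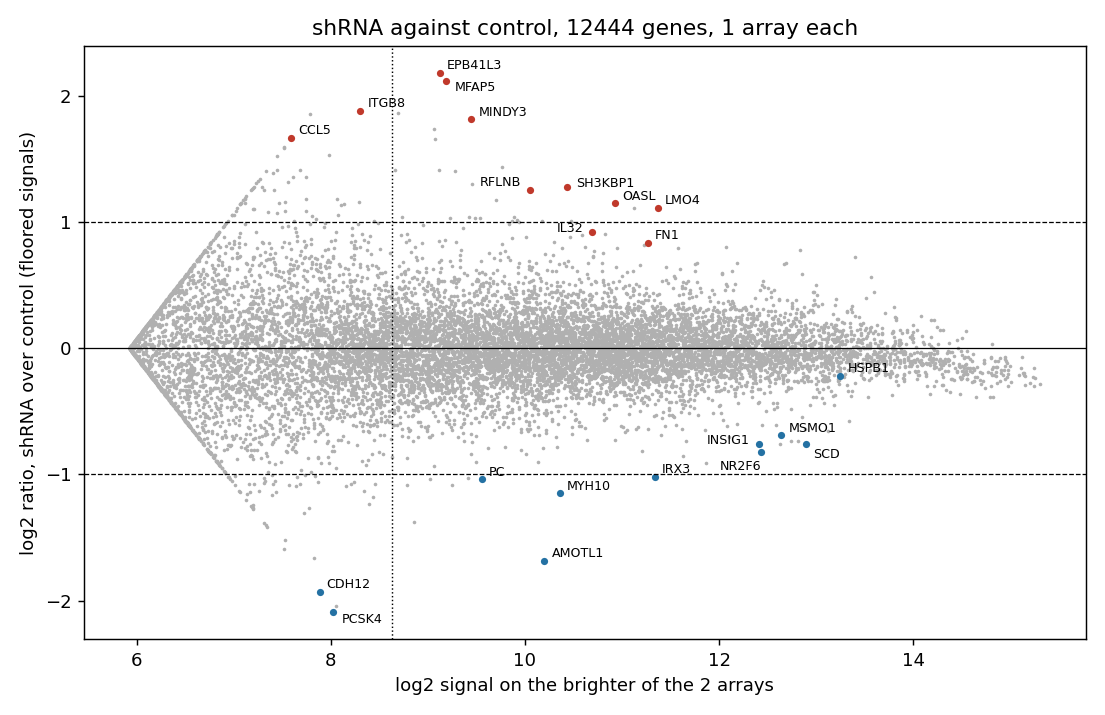
Log2 ratio of shRNA to control (vertical axis, floored signals) against the log2 signal on the brighter of both arrays (horizontal axis) for 12444 genes, 1 point per gene. Dashed lines mark 2-fold, the dotted line marks the 75th percentile (8.63), and the diagonal edges on the left arise from the floor; named genes in red were higher and in blue lower on shRNA. ITGB8, CCL5, CDH12 and PCSK4 show the scatter left of the dotted line.

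A second look at the same genes came from their other probe sets. Of the 85 genes at least 2-fold higher, 33 had another probe set above the floor. In 27 of these all the others had the same sign, in 12 the median of the others was itself at least 1.5-fold in the same direction, and in 5 it had the opposite sign. Of the 61 lower genes, 17 had another probe set, with the same sign throughout in 13, at least 1.5-fold in 6 and opposite in 4. The other side was taken by HLCS, HOXB13, TNRC6C-AS1 and FAM133A among the lower genes, and by ZNF37A, SPDEF, BAIAP3, ZSCAN30 and RAB6B among the higher ones. For BAIAP3 the chosen probe set had a ratio of 1.16 and the other -0.81. Among the bright genes past 1.5-fold, 109 of the 147 higher and 70 of the 114 lower ones were at least 3 noise SDs from 0. From a mean signal of about 9.80 upward the noise SD was at most 0.19, so that passing 1.5-fold already met this mark there. These counts are thus partly set by the choice of genes and are no separate check.

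The broadest group of lower genes was the pathway that makes cholesterol. All 17 measured enzymes of cholesterol synthesis read lower on the shRNA array than on control, 7 of them at least 1.5-fold lower and 0 higher, with a median log2 ratio of -0.42, against -0.01 over all measured genes. The background share at least 1.5-fold lower was 3.36%. The median stayed between -0.44 and -0.26 over the 7 processing alternatives. For ORF to the same control array it was -0.12. Cholesterol is built from acetyl-CoA through mevalonate, isoprenoids and squalene, and then by closing and trimming the sterol rings. When sterols in the endoplasmic reticulum run low, SCAP carries the transcription factors SREBF1 and SREBF2 to the Golgi for cleavage, and INSIG1 and INSIG2 hold them back when sterols are plentiful.

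In the mevalonate arm all 7 measured genes had ratios below 0, and 2 passed 1.5-fold. HMGCS1, which makes HMG-CoA, read 12.47 on shRNA, 13.13 on control and 12.85 on ORF. Its ratio of -0.66 was matched by -0.73 in its second probe set. ACAT2, which joins acetyl-CoA units, had a ratio of -0.42, and GGPS1, which makes the geranylgeranyl chain for protein prenylation, -0.40. MVK, mevalonate kinase, had -0.25 in its brightest probe set and between -0.76 and -0.63 in its other ones. FDPS, which makes farnesyl diphosphate, had -0.22, and PMVK, the next kinase after MVK, -0.09. IDI1, the isomerase of the isoprene unit, was less settled. It read 12.08 on shRNA against 12.82 on control (ratio -0.73), but its other probe sets ran from -0.62 to 0.22, and the one left when probe sets ending in _x_at or _s_at are dropped read 0.22.

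In the arm from squalene to cholesterol all 10 measured genes were below 0 and 5 passed 1.5-fold, with a median of -0.54. SQLE, squalene epoxidase, read 11.83 on shRNA, 12.44 on control and 12.27 on ORF, and its other probe sets lay between -1.03 and -0.59. LSS, which closes the sterol rings, read 10.95, 11.86 and 11.55 in the same order (ratio -0.91), while its other probe sets ran from -0.78 to 0.25. MSMO1, a sterol methyl oxidase, read 11.95, 12.64 and 12.36. DHCR7, which catalyses the last step to cholesterol, read 9.91, 10.64 and 10.55, with -0.62 in its second probe set. In each of these genes the shRNA array was the lowest of the 3 and the ORF array lay between it and control. TM7SF2, a sterol reductase, was near the floor, with 5.32 on shRNA and 6.90 on control. HSD17B7 had a ratio of -0.47, NSDHL -0.27, EBP -0.25, SC5D -0.21 and LBR, whose product is both a sterol reductase and an anchor of the nuclear envelope, -0.12.

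The regulators of the pathway were lower as well. All 7 measured sensors, proteases and factors had ratios below 0, with 3 at least 1.5-fold lower. INSIG1 read 11.65 on shRNA, 12.41 on control and 12.28 on ORF, a ratio of -0.76, and its other probe sets were lower still, at -1.20 and -1.02. SREBF1 read 8.71, 9.45 and 9.68 in the same order, with -0.60 in its second probe set. SREBF2 read 8.62, 9.22 and 9.02, but its other probe sets ran from -0.78 to 0.25. INSIG2 had a ratio of -0.41, MBTPS1, the site-1 protease that makes the first cut in SREBP, -0.27, MBTPS2, the site-2 protease, -0.11 and SCAP -0.08. The 5 measured genes of sterol uptake and receptor turnover were all below 0 and 0 passed 1.5-fold: NPC2, which moves cholesterol out of lysosomes, -0.32, MYLIP, which marks the LDL receptor for breakdown, -0.28, NPC1, the membrane partner of NPC2, -0.25, STARD4, a sterol carrier, -0.21 and SCARB1, the receptor for high-density lipoprotein, -0.13. The other probe sets of NPC1 read 0.12 and 0.16. For all 12 regulators and uptake genes together the median was -0.28, and -0.03 for ORF to the same control array. The list holds 15 genes, and the remaining ones, all of the uptake group, had no probe set of their own.

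**Figure D2:**
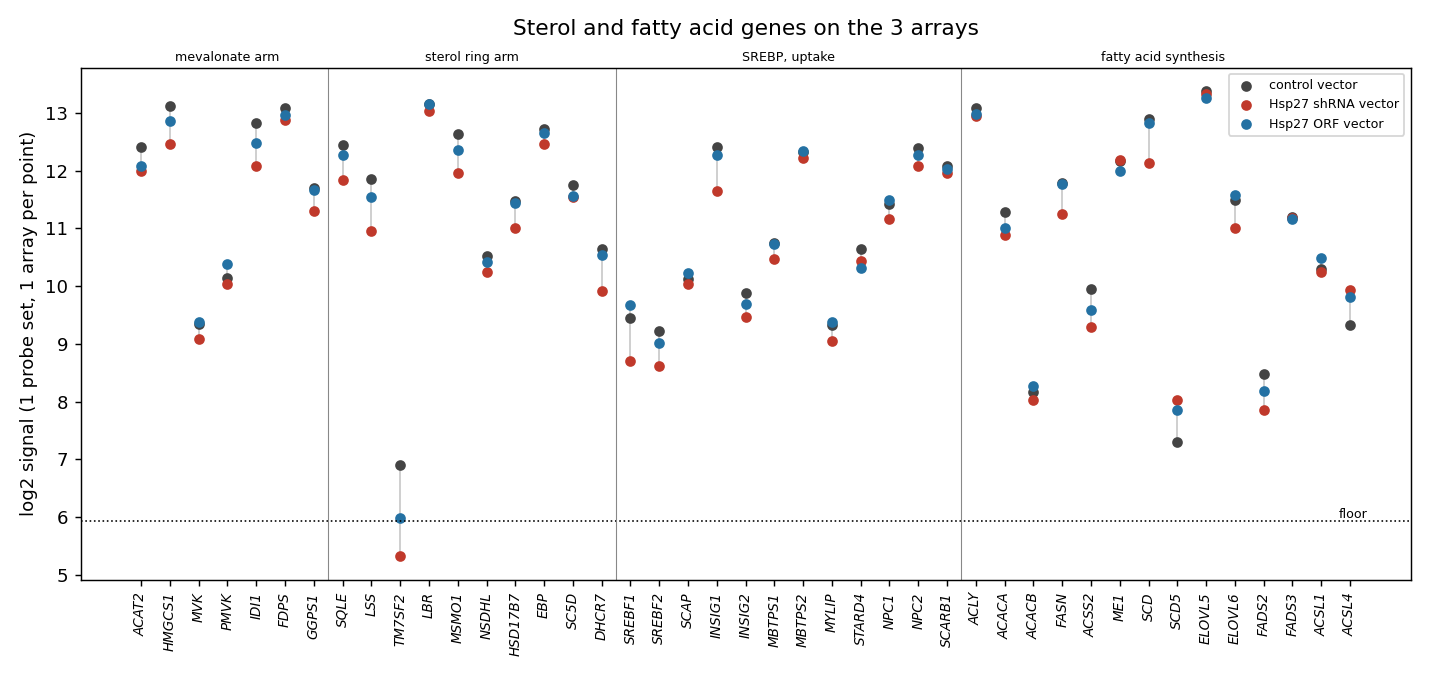
Log2 signal (vertical axis) of each measured gene of cholesterol synthesis, SREBP regulation and sterol uptake, and fatty acid synthesis (horizontal axis) on the control, shRNA and ORF arrays, 1 point per array and gene, with the floor dotted. In the first 3 sections (mevalonate arm, sterol ring arm, SREBP and uptake) every red shRNA point lies below its dark grey control point.

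Promoter letters of these genes are shown because the ratios of the sterol genes had 1 sign throughout. The windows are RefSeq's 250 bases before the start of each gene on GRCh38.p14, searched on both strands. The box CCAAT, bound by the factor NF-Y, which acts with SREBP at sterol genes, was present in 13 of 15 cholesterol synthesis genes that had a window, in 5 of 11 regulators and uptake genes in 37.0% of 27305 genes and in 41.4% of the 10112 measured genes with a window. The letters TCACNCCAC, the core of the classical sterol element, were present in 0 of the 15, in 1 of the 11 (SREBF2) and in 1.09% of all genes. Shorter forms of this element gave 1 of 15 for TCACCCCA (1.59% of all genes) and 0 of 15 for CACCCCAC (2.97%). The GC box GGGCGG was in 13 of 15, against 46.2% of all genes and 73.4% of measured ones. Both shorter forms overlap the full element. Among 13 fatty acid genes with a window, 9 held CCAAT and 1 the full element. The 4 stretches that follow are shown, each 5′ to 3′ on the gene's strand, with the matched letters in capitals: CCAAT, or ATTGG where it lies on the other strand, in INSIG1, LSS and MSMO1, and TCACCCCAC in SREBF2.
INSIG1, chr7:155297683-155297737, plus strand: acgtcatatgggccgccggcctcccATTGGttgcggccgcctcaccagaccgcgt
LSS, chr21:46228895-46228949, minus strand: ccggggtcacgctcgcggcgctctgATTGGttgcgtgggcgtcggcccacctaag
MSMO1, chr4:165327459-165327664, plus strand: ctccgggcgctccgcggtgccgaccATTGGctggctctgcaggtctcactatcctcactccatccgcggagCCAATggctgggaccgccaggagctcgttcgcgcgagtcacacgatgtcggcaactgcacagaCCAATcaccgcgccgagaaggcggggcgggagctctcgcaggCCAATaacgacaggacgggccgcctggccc
SREBF2, chr22:41832947-41833005, plus strand: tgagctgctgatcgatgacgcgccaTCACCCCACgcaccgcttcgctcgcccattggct
MSMO1 held 4 such boxes and each of the others held 1 match of the kind shown. A match describes letters only, and binding was not measured.

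Cholesterol efflux did not share a direction. ABCA1, which exports cholesterol to apolipoproteins, read 6.30 on shRNA, 7.01 on control and 8.51 on ORF, and ABCG1, its partner exporter, 6.26, 6.63 and 7.95, so both were lowest on the shRNA array. SOAT1, which esterifies cholesterol for storage, had a ratio of 0.44 and NCEH1, which releases it, 0.36. Of 8 measured genes, 1 was at least 1.5-fold lower and 0 higher. The list's median of -0.21 turned to 0.08 over the 6 members left without probe sets ending in _x_at or _s_at.

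Fatty acid genes were mixed, with the main desaturase and the synthase on the lower side. SCD, which puts the first double bond into saturated fatty acids, read 12.14 on shRNA, 12.90 on control and 12.82 on ORF, and its other probe sets lay between -0.71 and -0.17. FASN, fatty acid synthase, had a ratio of -0.53 and its second probe set -0.33. ACSS2, which makes acetyl-CoA from acetate, had -0.66, FADS2, a desaturase of polyunsaturated fats, -0.62, ELOVL6, an elongase, -0.49 and ACACA, the enzyme that makes malonyl-CoA, -0.40. On the other side stood SCD5, a second desaturase, at 0.72 (8.02 on shRNA, 7.30 on control and 7.85 on ORF), and ACSL4, which activates arachidonic acid, at 0.60. Of 14 genes, 3 were at least 1.5-fold lower and 2 higher. ACLY, ACACB, ACSL1, ELOVL5, FADS3 and ME1 lay between -0.15 and 0.02.

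Triglyceride genes held few differences. LIPE, hormone-sensitive lipase, had 5.17 on shRNA, below the floor, against 6.86 on control, but its second probe set had a ratio of -0.05. DGAT2, which adds the last acyl chain, had a ratio of 0.74, beside 0.04 in its second probe set, and LPIN2, a phosphatidate phosphatase, 0.69, beside 0.12. PNPLA3, whose transcription SREBP factors raise in liver, had -0.45, with -0.82 in its second probe set, and LPIN1 had -0.36, with -0.61. PLIN2, the coat protein of lipid droplets, stood at 0.05. Of 16 genes of fatty acid oxidation 0 passed 1.5-fold in either direction.

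A pair of mitochondrial enzymes around oxaloacetate was lower. PC, pyruvate carboxylase, which makes oxaloacetate from pyruvate, read 8.52 on shRNA, 9.56 on control and 8.77 on ORF. PCK2, the mitochondrial enzyme that turns oxaloacetate into phosphoenolpyruvate, read 8.13, 9.06 and 8.75 in the same order. Each has 1 probe set. They were the 2 genes past 1.5-fold among 16 of the citric acid cycle and its feeding reactions. PCK2 is also a target of the factor ATF4. Of 38 measured genes of the integrated stress response and amino acid supply it was the 1 that passed 1.5-fold. The part of ATF4 was not tested. Among 20 genes of the unfolded protein response 0 passed.

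Bright housekeeping groups lay slightly below 0 as blocks. Of 37 cytosolic ribosomal protein genes 35 were below 0, with a median of -0.17, and of 30 subunits of oxidative phosphorylation 27 were below 0, with a median of -0.13. In both lists 0 genes passed 1.5-fold. The ribosomal median ran from -0.17 to -0.01 over the alternatives, and that of oxidative phosphorylation from -0.13 to -0.06. Their signals are among the brightest. The median of all genes was -0.02 at a signal of 12 to 13, -0.04 at 13 to 14 and -0.14 above 14. The part of signal in these shifts was not tested. Glycolysis (19 genes, median -0.11) had 0 genes past 1.5-fold.

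Interferon-stimulated genes lay mostly on the higher side. Of 32 measured, 26 were above 0, 11 at least 1.5-fold higher and 0 lower, with a median of 0.30, against a background of 3.66% at least 1.5-fold higher. The median lay between 0.19 and 0.34 over the alternatives. For ORF to the same control array the median of these genes was 0.19, so that a shift above 0 was not particular to shRNA. These genes are switched on by type I interferon or directly by the factor IRF3, and many bind or cut viral RNA.

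Among the RNA sensors and factors, 5 of 6 measured genes were above 0. RIGI, which recognises double-stranded RNA with a 5′ triphosphate, read 8.37 on shRNA, 7.72 on control and 8.29 on ORF. Its ratio of 0.65 was not shared by its other probe sets, at 0.10 each. IFIH1, the sensor of long double-stranded RNA, had 0.38 and IRF9, the DNA-binding part of the interferon-activated complex, 0.34, both within 1.5 noise SDs. IRF7 had 0.17 and IRF1 0.03, and TLR3, the endosomal sensor, had -0.36 with 0.40 in its second probe set.

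The effectors differed more. IFIT1, which binds RNA that lacks the host cap, read 9.83 on shRNA, 8.85 on control and 9.32 on ORF. IFIT2, its partner, read 9.92, 8.91 and 9.41 in the same order, and IFIT3, which stabilises the complex, 11.23, 10.41 and 10.70. In all of them the shRNA array was highest and ORF lay between. The second probe sets of IFIT2 and IFIT3 had smaller ratios, 0.38 and 0.25. OASL, a relative of the oligoadenylate synthases that boosts RIGI signalling, read 10.93, 9.78 and 10.23, a ratio of 1.15 with 0.72 in its second probe set. Its catalytic relatives did not share this: OAS1 had -0.24 and OAS3 0.01. GBP1, a guanylate-binding protein that coats bacteria, had a ratio of 0.77 with its other probe sets at 0.37 and 0.59, IFI44, an interferon-induced protein, 0.81 with 0.06 in its second, and ISG15, a ubiquitin-like modifier, 0.53. HERC5, the ligase that attaches ISG15, had 0.43. BST2, which tethers budding viruses, went the other way at -0.25, and SAMD9, PARP9 and IFI35 lay between -0.19 and -0.06.

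Chemokines of this group crossed the floor. CCL5, which draws T cells, read 7.59 on shRNA, 5.65 on control and 6.19 on ORF. CXCL10 and CXCL11, both ligands of the receptor CXCR3, read 6.62 against 5.21 and 6.81 against 5.13. All their control readings were below the floor, so that the floored ratios of 1.67, 0.69 and 0.89 set the shRNA reading against the floor itself. These genes counted as measured through the shRNA array alone and are among the 11 at least 1.5-fold higher. The other probe sets of CCL5 read 0.22 and 0.91.

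**Figure D3:**
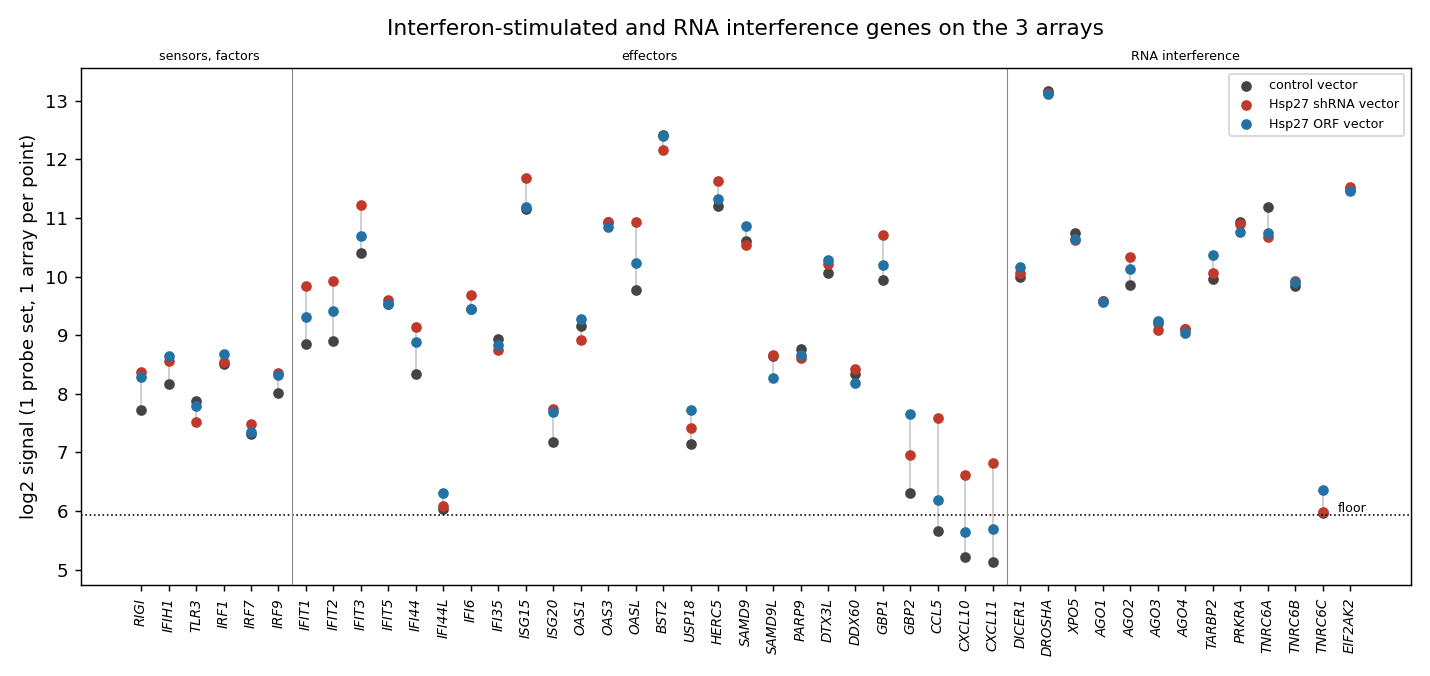
Log2 signal (vertical axis) of each measured interferon-stimulated gene and each gene of RNA interference (horizontal axis) on the control, shRNA and ORF arrays, 1 point per array and gene, with the floor dotted. The IFIT genes and OASL were highest on shRNA, while DROSHA, AGO4 and EIF2AK2 nearly coincide on the 3 arrays.

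Promoter windows of these genes are shown because most of their ratios were above 0 (26 above and 6 below). The letters TTTCNNTTT, the core of the element bound by interferon-regulatory factors, were present in 21 of 26 interferon-stimulated genes with a window, against 11.1% of all 27305 genes, 8.81% of measured ones and 4 of the 15 cholesterol synthesis genes. The 3 stretches below carry 2 or 3 matches each, in capitals, with the reverse form AAANNGAAA counted as a match.
IFIT1, chr10:89392421-89392553, plus strand: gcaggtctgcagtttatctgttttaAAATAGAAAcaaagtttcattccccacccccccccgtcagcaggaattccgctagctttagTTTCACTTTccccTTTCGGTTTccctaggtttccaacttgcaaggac
IFIT3, chr10:89327816-89327908, plus strand: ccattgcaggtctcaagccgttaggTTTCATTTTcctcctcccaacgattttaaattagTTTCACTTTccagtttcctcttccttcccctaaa
RIGI, chr9:32526299-32526364, minus strand: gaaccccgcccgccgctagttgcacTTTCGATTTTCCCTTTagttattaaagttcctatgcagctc
In RIGI the matches overlap. Members such as OAS1 and BST2, whose ratios were below 0, belong to the same list, and carrying the letters was not set against the size of the ratio.

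The machinery of RNA interference itself was even. Of 13 measured genes 0 passed 1.5-fold, and the median was -0.0019, with a highest value of 0.04 over the alternatives. DROSHA, which cuts primary microRNAs in the nucleus, had a ratio of -0.03, DICER1 0.07, XPO5, which exports hairpins from the nucleus, -0.12, and AGO1, AGO3 and AGO4 between -0.13 and 0.00. AGO2, the Argonaute that cleaves its target, was the highest at 0.46, with 10.33 on shRNA, 9.87 on control and 10.13 on ORF. TNRC6A, a scaffold of silencing complexes, was the lowest at -0.50. EIF2AK2, the kinase PKR that double-stranded RNA activates, stood at 0.05.

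NF-kB genes were mostly above 0. NF-kB factors are held in the cytoplasm by inhibitor proteins and drive genes of inflammation once released. Of 26 measured genes, 23 were above 0, 7 at least 1.5-fold higher and 0 lower, against 3.66% of all measured genes at least 1.5-fold higher. The median was 0.30, with a range of 0.21 to 0.33 over the alternatives. On the ORF array the same genes had a median of 0.33 to the same control array, so that the shift was not particular to shRNA. The 5 subunits had ratios from 0.01 for RELA to 0.50 for RELB. NFKBIB, an inhibitor, read 8.87 on shRNA, 8.07 on control and 8.57 on ORF, with 0.03 and 0.75 in its other probe sets, while NFKBIA, the inhibitor that NF-kB itself induces, had -0.31.

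Among the targets of NF-kB, IL32, a cytokine of epithelial and immune cells, had a single probe set. It read 10.69 on shRNA, 9.77 on control and 9.94 on ORF, a ratio of 0.92, or 5 noise SDs of 0.18. PTGS2, which makes prostaglandins, read 10.59, 9.69 and 11.58, and LCN2, which binds iron carriers of bacteria, 9.76, 8.33 and 11.94. Both were higher on shRNA than on control and higher again on ORF, as was IL6 between shRNA (8.66) and ORF (8.83), against 7.25 on control. The same order held for CXCL1 (7.05, 6.33 and 7.93) and CXCL8 (6.50, 5.41 and 8.36), which draw neutrophils. ICAM1, an adhesion receptor for leukocytes, had a ratio of 0.70, with 0.24 and 0.40 in its other probe sets. CCL2, a monocyte chemokine, had 0.11, and IL1B 0.04. The letters GGGANTTCC, an NF-kB site, were found in 2 of 21 windows, against 1.94% of all genes.

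A few genes for secreted and surface proteins, taken from ranks 13 to 40 on the higher side, follow. PI3, the elastase inhibitor elafin, read 11.12 on shRNA, 10.01 on control and 11.87 on ORF. CXCL16, a chemokine anchored in the membrane, read 8.73, 7.69 and 8.64. GPR160, an orphan receptor, read 9.48, 8.45 and 9.09. For these, shRNA and ORF were both above control.

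Killer cell immunoglobulin-like receptors, which natural killer cells use to read HLA class I, mostly read higher where they were measured. Of 13 on the array, 10 were measured and 3 were bright. Among the 10, 5 passed 1.5-fold on the higher side and 0 on the lower, against 3.66% and 3.36% of all measured genes. The list was chosen with earlier results of these data known, and KIR2DS5 and KIR2DS2 stood at ranks 6 and 10 on the higher side. These counts are thus no separate check. The median was 0.61 (0.44 to 0.65 over the 5 alternatives that left enough members), and 0.28 for ORF to the same control array. KIR2DL5A read 10.82 on shRNA, 9.91 on control and 10.24 on ORF, KIR2DS2 9.28, 7.87 and 8.07, and KIR3DL3 8.45, 7.44 and 8.21. KIR2DL1 went the other way at -0.17. KIR2DS1, KIR2DS3 and KIR2DS4, below the floor on both arrays, also read lower on shRNA (4.78 against 5.90, 5.17 against 5.64 and 2.31 against 2.43). The genes are near-identical copies of one another, so that their probe sets cannot be read as separate genes. The leukocyte markers on the same arrays were near background, with PTPRC below the floor. CD79A, a B cell marker, was the 1 leukocyte marker past 1.5-fold, at 7.30 on shRNA and 6.47 on control.

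Feedback genes of the ERK pathway were mostly higher. ERK activity induces phosphatases and Sprouty proteins that then damp it. Of 11 feedback genes 9 were above 0, with 3 at least 1.5-fold higher and 1 lower, against 3.66% and 3.36% of all measured genes. Their median was 0.42 on shRNA and 0.51 on ORF, both to the same control array. DUSP4, a nuclear phosphatase of ERK, read 10.32 on shRNA, 9.71 on control and 10.53 on ORF, and its other probe sets read 0.40 and 0.62. DUSP6, the cytoplasmic one, had a ratio of 0.72 beside 0.19 in its second probe set, and ETV5, an ETS factor, 0.80, while its relative ETV4 had -0.71. SPRY2 and SPRY4 had 0.48 and 0.49 and SPRED1 0.42. Of 13 immediate early genes 9 were above 0, among them JUNB at 0.60, KLF6 at 0.41 and JUN at 0.27. EGR1 was on the other side, with 5.78 on shRNA, below the floor, and 6.82 on control. Over both roles the median was 0.29, and 0.16 to 0.33 over the alternatives.

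Genes of the cell skeleton and of junctions held some of the largest single differences but no shared direction. MYH10, the heavy chain of nonmuscle myosin IIB, read 9.21 on shRNA, 10.36 on control and 9.65 on ORF, with -0.93 in its second probe set. The other 15 measured genes of nonmuscle myosin and contractility lay within 1.5-fold. AMOTL1, a junction protein that holds YAP in the cytoplasm, read 8.52, 10.20 and 8.37, so that shRNA and ORF were both lower than control. Its ratio of -1.68 was not matched by its other probe sets, at -0.82 and -0.20, and it is -0.51 as the median over probe sets, under 1.5-fold. Its relative AMOTL2 was on the other side, at 12.18, 11.50 and 11.55, as was CCN1, a matricellular YAP target, at 13.40, 12.68 and 12.59. The second probe set of CCN1 read 0.60. For AMOTL2 and CCN1 only the shRNA array departed from the other two.

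EPB41L3, which links membrane proteins to actin, read 9.12 on shRNA, 6.94 on control and 8.49 on ORF, with other probe sets between 1.10 and 2.67. Its ratio of 2.18 becomes 0.49 with the floor at the 75th percentile, which lies above its control signal. Its relative EPB41L1 had a ratio of -0.89. ACTG2, the smooth muscle gamma actin, read 10.45, 9.75 and 8.90. SH3KBP1, an adaptor of receptor uptake, read 10.43, 9.15 and 10.12, with 1.28 and 1.33 in its other probe sets, beside its own ratio of 1.28. RFLNB, which binds filamin, read 10.05, 8.80 and 9.28, with 1.06 in its second probe set. NCK2, an adaptor between receptors and actin, read 9.23, 8.20 and 9.06. FYN, a Src family kinase, read 10.01, 9.13 and 9.86, and its other probe sets ran from 0.13 to 1.20. MTSS2, a membrane-bending actin regulator, read 9.54, 8.51 and 8.64, a ratio of 1.03 with 0.24 in its second probe set. PARD6B, a cell polarity protein, read 9.87, 8.86 and 9.34. Of its 3 probe sets no other was above the floor on shRNA or control, and its ratio went to 0 under an alternative. On the lower side SSH3, a slingshot phosphatase of cofilin, had a ratio of -0.69, with -0.33 and -0.21 in its other probe sets.

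Matrix genes went both ways. FN1, fibronectin, read 11.26 on shRNA, 10.43 on control and 10.85 on ORF, with 0.61 to 0.90 in its other probe sets. COL1A1, a chain of type I collagen, read 10.62, 9.82 and 9.97, but its other probe sets ran from -0.08 to 0.53. MFAP5, a protein of elastic microfibrils, read 9.18, 7.06 and 8.88. Lower on shRNA were COL5A2, a chain of type V collagen, at 8.17, 9.25 and 8.31, and DCN, the proteoglycan decorin, at 9.23, 10.14 and 9.67. LAMA4, a laminin chain of vessel walls, read 7.07, 8.16 and 6.80, and EDIL3, an integrin ligand, 12.25, 12.89 and 11.21. Of 18 matrix proteins outside the collagens, 1 was at least 1.5-fold higher and 3 lower, and their median of -0.11 turned to 0.02 over the 14 members left without probe sets ending in _x_at or _s_at. LTBP3, which stores latent TGF-beta in the matrix, had a ratio of -0.69, with -0.41 and -0.17 in its other probe sets, and FLRT3, an adhesion protein that also binds FGF receptors, -0.87.

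Proteases of the matrix and adhesion receptors added a few genes to the higher side. Of 19 proteases and inhibitors 16 were above 0 and 4 at least 1.5-fold higher, against 3.66% of all measured genes. MMP2, a gelatinase, read 8.69 on shRNA, 6.82 on control and 8.83 on ORF. Of its 3 probe sets no other was above the floor on shRNA or control, and its ratio went to 0 under an alternative. MMP14, which activates MMP2 at the cell surface, had a ratio of 0.65, and SERPINE2, an inhibitor of thrombin and plasminogen activators, 0.70. ADAM33, a membrane-bound metalloproteinase, read 7.36, 6.53 and 4.42, so that the ORF array alone was below the floor. The list's median of 0.22 ran from 0.02 to 0.30 over the alternatives. ITGB8, an integrin chain that activates TGF-beta, read 8.30, 6.42 and 7.83, and was the 1 of 12 measured integrin chains past 1.5-fold. NRP1, a receptor of semaphorins and VEGF, read 7.85, 6.83 and 7.84, with 0.82 in its second probe set, and NRP2 had 0.62.

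Epithelial and mesenchymal genes did not split cleanly. Of 10 measured mesenchymal genes and their regulators, 8 were above 0 and 3 passed 1.5-fold: FN1, ZEB2 (7.27 on shRNA, 6.53 on control and 6.40 on ORF) and TWIST2 (10.26, 9.57 and 9.85). The last 2 are transcription factors that repress epithelial genes. The second probe set of ZEB2 read 0.00. Of 10 epithelial genes 5 were above 0 and 5 below, and EHF, an epithelial ETS factor, was the 1 past 1.5-fold, at 7.38, 8.46 and 8.83, with -0.17 in its second probe set. Of 28 measured genes of the TGF-beta and BMP pathway, ID2, an inhibitor of helix-loop-helix factors, alone passed 1.5-fold, with a ratio of 0.62 and 0.29 in its second probe set.

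Several developmental transcription factors were among the bright genes with the largest ratios. IRX3, an Iroquois homeobox factor, read 10.32 on shRNA, 11.34 on control and 11.03 on ORF. NR2F6 and NR2F1, orphan nuclear receptors of the COUP family, read 11.62, 12.44 and 12.27, and 10.39, 11.21 and 10.41. Of the 3 probe sets of NR2F6 no other was above the floor on shRNA or control, and its ratio went to 0 under an alternative. HOXC4, a homeobox factor of body patterning, read 8.83, 9.62 and 9.50. In IRX3, NR2F6 and HOXC4 the ORF array was nearer to control, whereas in NR2F1 it matched shRNA.

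Higher on shRNA was LMO4, a LIM-only cofactor, at 11.37, 10.26 and 10.87, although its other probe sets ran from 0.06 to 0.83. HDAC9, a class IIa histone deacetylase, read 9.89, 8.84 and 8.98, with 0.18 in its second probe set. KLF7, a Krüppel-like factor, had a ratio of 0.85 with 0.28 to 0.74 in its other probe sets. E2F1, which drives entry into S phase, read 8.95, 7.97 and 8.25, but its second probe set read -0.12. It was the 1 of 25 replication genes past 1.5-fold. Of 25 genes of G2 and mitosis, KIF20A, a kinesin of cytokinesis, at 11.40, 12.10 and 11.66, and CDC25C, the phosphatase that starts mitosis, at -0.59 (0.05 in its second probe set), were at least 1.5-fold lower. DNMT3L, a cofactor of DNA methylation in germ cells, read 8.38 on shRNA, 9.41 on control and 8.40 on ORF.

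Other genes of ranks 13 to 40 on the higher side had varied roles. MAP4K4, a kinase of stress and adhesion signalling, read 10.17 on shRNA, 9.17 on control and 10.01 on ORF, and its other probe sets were between 0.28 and 1.07. UGT8, which makes galactosylceramide, had a ratio of 0.90, with 0.89 in its second probe set. RYR2, a calcium release channel, read 9.17, 8.31 and 8.18, with the shRNA array alone apart. CYP26B1, which breaks down retinoic acid, had 0.84, and ARF1, a GTPase of the Golgi, 0.86 from 1 probe set. DNAH14, a dynein chain, and CCDC124, a ribosome-associated protein, had 0.88 and 1.18. HMGB3P1, a pseudogene of HMGB3, had 1.01 and may share its probes with the parent gene.

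On the lower side, RAB40B, a GTPase that helps sort secreted proteases, read 11.86 on shRNA, 12.62 on control and 11.92 on ORF, with other probe sets from -0.36 to -0.08. C1orf198 read 10.77, 11.63 and 10.53. RABGEF1, which activates RAB5 on early endosomes, had a ratio of -0.78, but its second probe set read -0.01. CMTR1, which methylates the ribose of the first nucleotide after the mRNA cap, read 9.39, 10.18 and 10.04, and MUTYH, a DNA repair glycosylase, had -0.69. TMEM135, a peroxisomal protein tied to cholesterol transport, read 10.92, 11.66 and 11.54. CHTF18, a loader of the replication clamp, DHX8, a splicing helicase, CAMKK1, a kinase upstream of AMPK and CaM kinases, and PMM1, a mannose phosphate mutase, had ratios from -0.73 to -0.69. GATD3 and TMEM205 had -0.72 and -0.71, CMC4 -0.69, TSC22D4 -0.70 and GPNMB, a glycoprotein of lysosomes, -0.71. The second probe sets of DHX8, GPNMB and TSC22D4 read -0.05, -0.10 and -0.15, and that of GATD3 -0.50. THUMPD3-AS1, an antisense transcript, had -0.84, and array probes for it and its partner THUMPD3 (-0.62) may overlap.

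In symbol families with at least 20 measured genes at most 2 members passed 2-fold in 1 direction. Of 232 SLC transporters SLC22A31 was higher (1.20) and SLC51B, an exporter of bile acids, lower (8.05 on control, 6.01 on shRNA and 6.78 on ORF). Of 362 ZNF zinc finger genes ZNF37A alone passed, at 1.04. Of 62 RAB genes RAB20 (1.18) and RAB6B (1.08) were higher and RAB3A, of synaptic vesicles, lower (-1.18). The DUSP phosphatases had 3 of 22 members at least 1.5-fold higher and 0 lower. Of 44 genes with the stem IL, 9 were at least 1.5-fold higher and 1 lower. The shares over all measured genes were 3.66% higher and 3.36% lower. CYP2D6, a drug-metabolising enzyme, had a ratio of 1.52, with 7.45 on shRNA and 5.60 on control, below the floor.

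**Figure D4:**
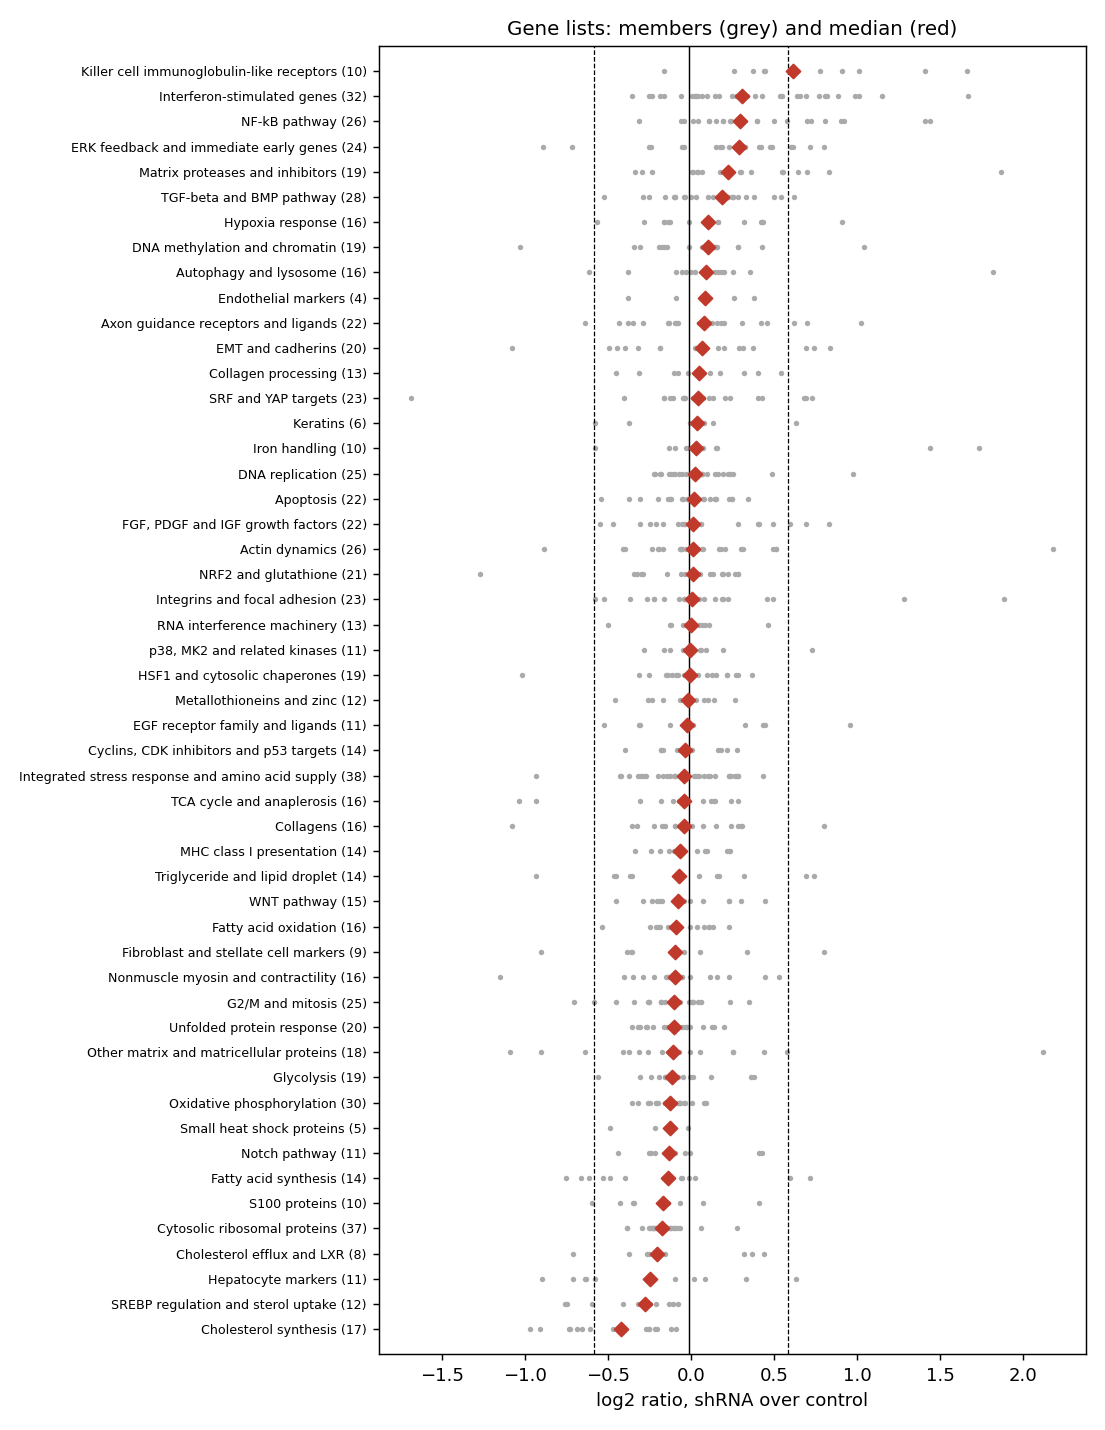
Log2 ratio of shRNA to control (horizontal axis) for the measured members (grey points) of each gene list with at least 4 such members, with the list's median as a red diamond and the number of members in brackets. The solid line is the median of all measured genes and the dashed lines mark 1.5-fold; cholesterol synthesis lies at the bottom, at -0.42, and interferon-stimulated and NF-kB genes near the top, both at 0.30.

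Beyond single pathways, neighbouring genes were compared along chromosomes by RefSeq gene order. Blocks of 25 neighbouring bright genes were formed after running medians and blocks of 15 genes had been looked at, so that their choice followed the data. Over 326 blocks the median ratio lay between -0.13 and 0.11 from the 5th to the 95th percentile. The highest was the last full block of chromosome 2, from SP100 to HDLBP, with a median of 0.39, 22 of 25 genes above 0 and 7 at least 1.5-fold higher. The block before it, from CTDSP1 to TRIP12, came next at 0.24. Together the 2 blocks held 45 of 50 genes above 0, with 12 at least 1.5-fold higher and 0 lower. The 5 bright genes beyond them were all above 0, from 0.19 to 0.65. The bright background at least 1.5-fold higher was 1.82%.

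The genes of this stretch have varied roles. IRS1, the docking protein of the insulin receptor, had a ratio of 0.90, although its other probe sets ran from -0.41 to 0.29, DNER, a Notch ligand of neurons, 0.87, HDLBP, an RNA-binding protein, 0.79, TWIST2 0.69 and MTERF4, a mitochondrial ribosome factor, 0.95, with 0.13 to 0.49 in its other probe sets. MLPH, which ties pigment granules to myosin, had 1.30 and SP100, a nuclear body protein, 1.003, although the other probe sets of SP100 ran from -0.09 to 0.53. Other genes above 1.5-fold were MFF, AGFG1, SERPINE2, ITM2C and GIGYF2, and the exceptions below 0 included ALPG at -0.42 and ALPP at -0.23, both placental-type alkaline phosphatases. Over the last full block the ORF array had a median of 0.19 to the same control array. The 17 genes of it with other probe sets gave 0.30 for those probe sets, 14 of them above 0. The dimmer genes of the same stretch did not follow: 14 of 25 were above 0 and 11 below, with a median of 0.06. Where each gene took the median of its probe sets the block's value was 0.18. Gene copy number was not measured here and its part was not tested.

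Next came a pair of adjoining blocks of chromosome 10, at 0.23 (from ECHDC3 to DNAJC1) and 0.19 (from COMMD3 to CREM). The lowest were a block of chromosome 19 from SELENOW to PRR12, at -0.22, and the first 2 of chromosome 3, from TRNT1 to SEC13 and from VGLL4 to RFTN1, at -0.22 and -0.20. In the latter 1 of 25 genes was above 0, and its 14 genes with other probe sets gave -0.15. Dimmer genes there had medians of -0.13 and -0.12, in the same direction.

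**Figure D5:**
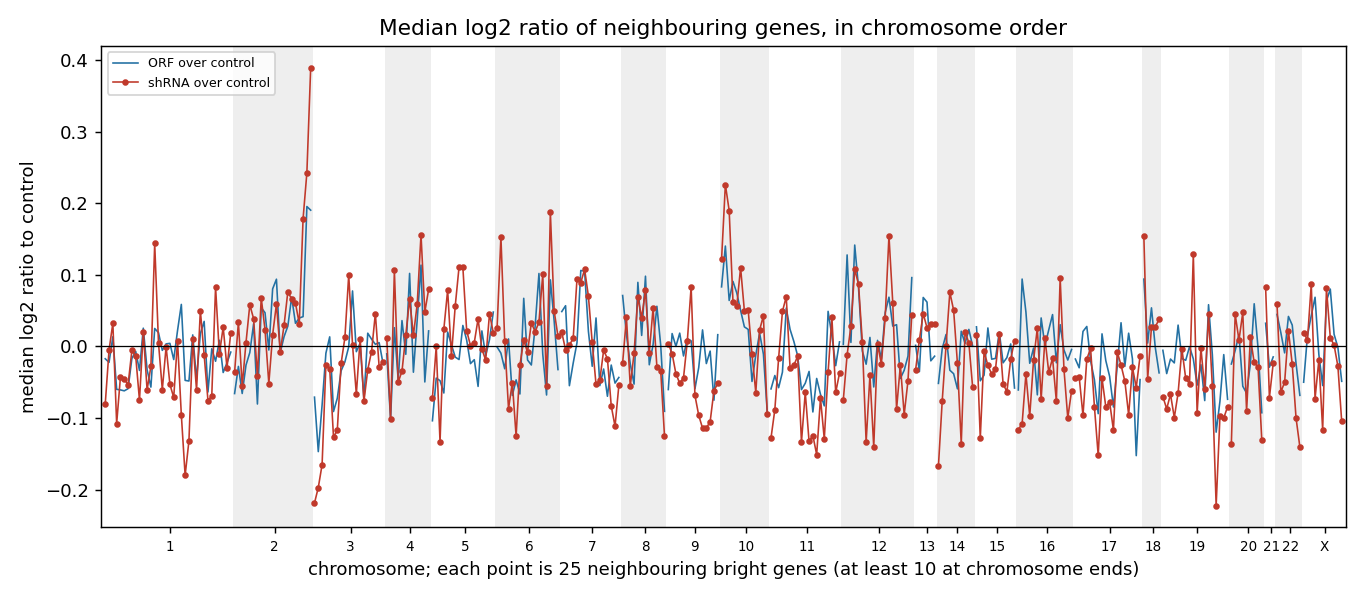
Median log2 ratio to control (vertical axis) of blocks of 25 neighbouring bright genes in chromosome order (horizontal axis), for shRNA (red points) and ORF (blue line), with chromosomes shaded in turn. The end of chromosome 2 reaches 0.39 on shRNA, and the start of chromosome 3 lies at -0.22; both lines share the same control array.

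Long noncoding RNAs, by RefSeq's gene type, read lower as a class. Of 118 bright ones 34 were above 0 (28.8%), with a median of -0.13, against 3730 of 7895 bright protein-coding genes (47.2%) and a median of -0.02. On the ORF array the same class had a median of -0.005 to control. The median stayed between -0.14 and -0.09 over the alternatives. The part of RNA quality was not tested. This class was examined after its values were seen.

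Among bright genes, those next to the 2-fold threshold show how little separates the counts. Just inside on the higher side were SP100 (1.003), MAP4K4 (1.004) and PARD6B (1.01), and just outside were IFIT1 (0.99), E2F1 (0.98) and MTERF4 (0.95). On the lower side IRX3 (-1.02), DNMT3L (-1.03) and ARMC7 (-1.03) were inside, and PCK2 (-0.94), LSS (-0.91) and DCN (-0.90) outside.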

How the data were processed

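Total RNA of each culture was column-purified, labelled by 3′ in vitro transcription and hybridised to 1 short-oligonucleotide array, per the labels' protocols. The authors' deposited values are log2 signals for 54675 probe sets, made with MAS5 per the submitters' processing notes. The sources used here do not give the version of MAS5, the target of its scaling or its detection calls. All 3 arrays had a 2% trimmed mean of 500.1 in linear signal. From these, each array was scaled to that mean, floored at the pooled median, and 1 of the 41097 probe sets with 1 symbol in the platform annotation was taken per gene. The 1801 probe sets that name several genes and the 11777 without a symbol stayed out. The noise SD used pairs of probe sets of a gene within 1 log2 unit in mean signal, in 20 bins.

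With 1 array per group no test was made, and precision is limited by the number of arrays. The comparison, its members and the 52 gene lists were chosen with earlier results of these data known. Named genes were HSPB1, ranks 1 to 40 per direction among bright genes with the same sign in all their other measured probe sets (ranks 1 to 12 only where a group needed them), all sterol and fatty acid list members, members of other lists past 1.5-fold, family members past 2-fold, and up to 8 genes with opposite probe sets (RAB6B, past this number, is named as a family member); genes given as contrasts within a list, those of chromosome blocks, and PCSK4 and CDH12 in a figure, were chosen after their values were seen. The alternatives were quantile normalization, loess centring, equal medians, the 75th percentile as floor or none at all, the median over probe sets, and no probe sets ending in _x_at or _s_at. Motif choice was also made with ratios known. RefSeq gene order, gene types and promoter windows were those of GRCh38.p14. The procedure was tested on simulated data. Python 3.11.15, numpy 2.4.6, pandas 2.3.3 and statsmodels 0.14.6 were used.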

Additional observations from a re-analysis of the deposited data

Results flagged for a closer look

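Among probe sets with several gene symbols or none here, which stayed out of the gene comparison, 7 were bright and at least 2-fold higher on the shRNA array than on control. Probe set 214456_x_at had a log2 ratio of 2.28 (9.23 on shRNA, 6.95 on control and 11.09 on ORF). Probe set 222288_at had 1.62, 201540_at 1.38 and 1568955_at 1.27. The ratio of 208540_x_at was 1.27, with 13.80 on shRNA, 12.53 on control and 13.81 on ORF. Those of 209493_at and 205421_at were 1.27 and 1.06. They were 2 of 682 bright probe sets with several symbols and 5 of 936 with none.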

How the results depend on the processing

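Quantile normalization, loess centring and equal medians kept the counts of genes past 2-fold and 1.5-fold within 1.5 times. Without a floor, when all 19775 genes counted, 1820 were at least 2-fold higher and 1683 lower, and 2954 and 2808 at 1.5-fold. With the floor at the 75th percentile the 2-fold counts were 13 and 3 and the 1.5-fold counts 109 and 85. Where each gene took the median of its probe sets they were 32 and 37, and 241 and 229. HSPB1 kept its direction under 6 alternatives and has no value without probe sets ending in _x_at or _s_at. Leaving these out reversed IDI1 (0.22), TNRC6C-AS1 (0.14), and the medians of cholesterol efflux (0.0801) and other matrix proteins (0.0221). No other of the 184 named genes past 1.5-fold, and no other list with a median past 0.1 on the log2 scale, changed sign where it had a value. Size was less stable than sign. Among others, the ratios of MMP2, HDAC9, PARD6B, DNAH14, NR2F6, ITGB8, ETV5 and MMP14 went to 0 under an alternative. The cause of these changes was not tested. No paired analysis was possible because each group has 1 array.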

Other observations

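Among probe sets with no symbol here, 222227_at stood apart on the shRNA array, with a log2 signal of 3.03 against 9.68 on control and 11.36 on ORF, a floored ratio of -3.75. Next came 243702_at, with 9.10 on shRNA, 11.05 on control and 9.87 on ORF. Of the bright probe sets with several symbols, 209980_s_at was the 1 at least 2-fold lower (7.33 on shRNA and 8.66 on control).

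STEAP1, a metalloreductase, read 9.07 on shRNA, 7.33 on control and 9.15 on ORF, and was 1 of 2 of the 10 measured iron genes past 1.5-fold, the other being LCN2. Some gene groups not described above held 0 genes past 1.5-fold. Among 14 measured genes of MHC class I presentation, 22 of apoptosis, 15 of the WNT pathway and 11 of the Notch pathway, this held in either direction, although 9 of the 11 Notch genes were below 0, with a median of -0.13. The same held for 12 metallothionein and zinc genes. ALDH3A1, an enzyme that detoxifies aldehydes, was the 1 of 21 NRF2 and glutathione genes past 1.5-fold, with 5.86 on shRNA, 7.20 on control and 6.58 on ORF. ANGPTL4, a hypoxia target and lipase inhibitor, was the 1 of 16 hypoxia genes, with 6.83 on shRNA and 4.75 on control, the latter below the floor.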
